A study of Mus musculus with 18 samples.

Results

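The genes described here were present in LL2 tumours and near 0 in tumours of the other lines. They had at least 5 TPM in each of 6 LL2 libraries and under 0.5 TPM in each of 12 CT26NYESO1 and CT26 libraries. TPM is a transcript's share of the library, corrected for transcript length. Of 55291 genes in the deposited table, 38 met both limits. Keratin, Hox, immunoglobulin and collagen genes were left out by name, which removed Krt8 and left 37. The genes were selected on their TPM in LL2 against CT26NYESO1 and CT26, so these levels are given as a description with no test. The effect of OK-432 within LL2 was not used to choose the genes, and it was tested.

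The study sequenced messenger RNA of whole subcutaneous mouse tumours, collected on day 14. LL2 (LL/2, Lewis lung carcinoma) is a line of C57BL/6 origin, and CT26 derives from a BALB/c colon carcinoma. CT26NYESO1 (CT26-NY-ESO-1) is a CT26 line that takes its name from NY-ESO-1, an antigen of human tumours. OK-432 is a preparation of killed Streptococcus pyogenes. The groups with OK-432 (OK432) had received it inside the tumour for 24 hours, and the matching Ctrl groups had not. The 6 groups of 3 libraries each were LL2 OK432, LL2 Ctrl, CT26NYESO1 OK432, CT26NYESO1 Ctrl, CT26 OK432 and CT26 Ctrl. The labels name BALB/cJ and C57BL/6J hosts without assigning them to lines. Whether libraries of 1 group are from different mice is not said either, so p-values measure only the spread between libraries, which may be technical.

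A bulk tumour holds cancer cells and host cells, and each line is normally grown in mice of its own strain. A gene present in LL2 only can therefore belong to the line, to the C57BL/6 genome shared by line and host, or to a host cell type. Line and strain cannot be told apart in this design. Fewer cells of a type and less RNA per cell also cannot be told apart in bulk RNA.

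Genes known to differ between the strains were looked at outside the set, and the values show LL2 against the 12 other libraries without telling strain from line. Ifi202b, an interferon-inducible gene known to be poorly expressed in C57BL/6, had at most 0.0685 TPM in LL2 libraries, against 145 to 238 TPM in the 12 others. Gbp2b, a guanylate-binding protein also known to be low in C57BL/6, had at most 0.130 TPM in LL2 and 188 to 593 TPM in the 12 others. As a whole, a list of 9 genes known to be present in C57BL/6 did not show the reverse. Of its 7 genes in the table, 0 were in the set and 6 had at least 1 TPM in all 18 libraries, and their summed level was 125 to 226 TPM in LL2 and 452 to 865 TPM in the 12 others. The seventh gene, Klra8, did show the reverse, at 0.370 to 1.09 TPM in LL2 and at most 0.0728 TPM in the 12 others. It is given again with its cluster.

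The list of 18 lung markers gave a divided picture of LL2. The lung regulator Nkx2-1, the surfactant genes Sftpa1 and Sftpd, and Scgb3a2 and Slc34a2 were listed at 0 in all 18 libraries. The summed level of the list was nevertheless 82.7 to 91.3 TPM in LL2 and 30.04 to 40.3 TPM in the 12 others. Most of the LL2 sum was Hopx, at 60.9 to 70.9 TPM in LL2 and 3.61 to 16.3 TPM in the 12 others. Counts of genes on the list did not set LL2 apart. At least 1 TPM in all libraries of a line was reached by 5 genes in LL2, 5 in CT26NYESO1 and 3 in CT26. At least 5 TPM was reached by 1 gene in LL2, 2 in CT26NYESO1 and 2 in CT26. These counts hide Foxa2, also on the list, which narrowly missed the set. Its lowest LL2 value was 4.76 TPM, and it was under 0.5 TPM in all 12 others. Each of the 18 libraries listed 24036 to 25858 genes above 0, and their read depth is unknown.

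The 37 genes averaged between 5.93 and 168 TPM over the 6 LL2 libraries, with a median of 11.2 TPM. Averages of at least 20 TPM were reached by 5 genes, while 16 lay between 10 and 20 TPM and 16 below 10 TPM. Protein-coding genes made up 33 of the 37. The genes lay on 18 chromosomes, with 5 on chromosome 1, 4 on chromosome 13, 2 on the X and 0 on the Y. Klra4 and Trpa1 were listed at 0 in all 12 CT26NYESO1 and CT26 libraries, and 7 genes stayed under 0.1 TPM in all 12.

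**Figure D1:**
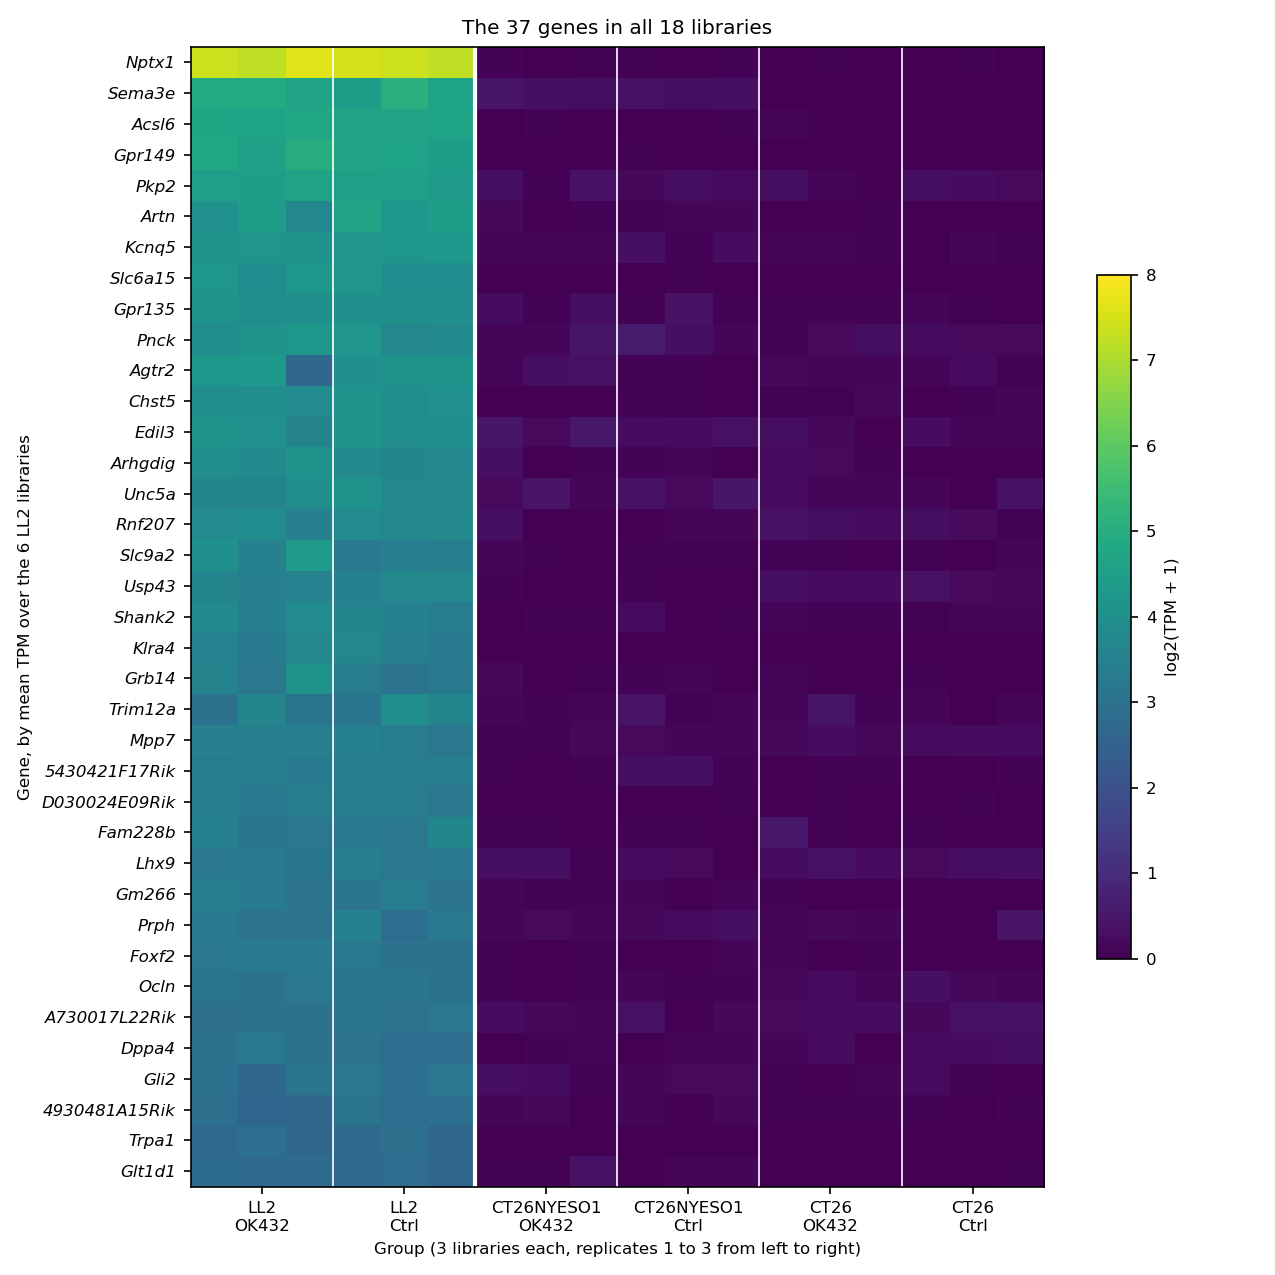
Colour gives log2(TPM + 1) of each of the 37 genes (rows, ordered by mean TPM over LL2) in each of the 18 libraries (columns, 3 per group). Nptx1 stands above the other genes in LL2 at 149 to 198 TPM, and the LL2 and other libraries differ in every row because the genes were chosen that way.

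Among secreted proteins and their receptors, Nptx1 stood far above the rest. Nptx1, a neuronal pentraxin that gathers glutamate receptors at synapses, had 166, 151 and 198 TPM in LL2 OK432, and 178, 165 and 149 TPM in LL2 Ctrl. Its highest value in the 12 CT26NYESO1 and CT26 libraries was 0.0481 TPM, and the LL2 groups overlapped. Nptxr, the membrane-bound pentraxin receptor, was present everywhere, at 124 to 158 TPM in LL2 and 23.1 to 46.1 TPM in the 12 others, while Nptx2 was listed at 0 in all 18 libraries. Nptx1 lies on chromosome 11 at 119538719 to 119547753 of the mm10 build.

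Sema3e, a secreted guidance cue for axons and blood vessels, had 28.5, 28.7 and 24.7 TPM in LL2 OK432 and 21.4, 33.0 and 23.8 TPM in LL2 Ctrl. It reached 0.356 TPM in CT26NYESO1 and 0.0199 TPM in CT26. Its receptor Plxnd1 was present in all tumours, with 21.5 to 33.7 TPM in LL2 and 23.7 to 59.1 TPM in the 12 others. Among the other class 3 semaphorins, Sema3c also lay higher in LL2, at 4.38 to 7.43 TPM against at most 0.835 TPM, whereas Sema3a lay lower, at 38.8 to 45.2 TPM in LL2 against 115 to 158 TPM.

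Artn, the neurotrophic ligand artemin, had 15.6, 21.1 and 12.2 TPM in LL2 OK432 and 24.3, 17.4 and 21.5 TPM in LL2 Ctrl, against at most 0.124 TPM in the 12 others. Its co-receptor Gfra3 stayed at or under 0.0462 TPM and the signalling receptor Ret at or under 0.439 TPM in LL2. The ligand was therefore measured in LL2 tumours with little transcript of either receptor. Edil3, a matrix protein that binds integrins, had 15.8, 15.5 and 10.98 TPM in LL2 OK432 and 16.6, 14.2 and 14.7 TPM in LL2 Ctrl. Its relative Mfge8 was abundant in every library, at 102 to 117 TPM in LL2 and 127 to 214 TPM in the 12 others.

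Unc5a, a netrin receptor, had 11.6, 11.2 and 14.3 TPM in LL2 OK432 and 16.0, 11.97 and 12.4 TPM in LL2 Ctrl. Its ligand Ntn1 had 116 to 144 TPM in LL2 and 1.46 to 3.58 TPM in the 12 others, so ligand and receptor were both higher in LL2. The sister receptor Unc5b was present in all tumours, at 43.5 to 51.2 TPM in LL2 and 21.3 to 47.2 TPM in the 12 others, and the netrin receptor Dcc was listed at 0 in all 18.

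The promoter of Unc5a is shown because it stands for the larger kind among these genes, that rich in CG pairs, beside the promoter of Klra4, which has none. Both are the 250 bases before the annotated start in RefSeq (GRCm38.p6), 5′ to 3′ on the gene's strand, with each CG in capitals. The Unc5a stretch is chr13:54949161-54949410 on the plus strand and holds 25 CG pairs. The Klra4 stretch is chr6:130067272-130067521 on the minus strand and holds 0.
Unc5a: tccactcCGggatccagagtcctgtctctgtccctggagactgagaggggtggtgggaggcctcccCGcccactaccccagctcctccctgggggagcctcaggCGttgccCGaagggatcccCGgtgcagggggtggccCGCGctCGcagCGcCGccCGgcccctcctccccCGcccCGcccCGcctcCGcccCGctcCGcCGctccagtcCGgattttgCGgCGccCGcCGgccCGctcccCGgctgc
Klra4: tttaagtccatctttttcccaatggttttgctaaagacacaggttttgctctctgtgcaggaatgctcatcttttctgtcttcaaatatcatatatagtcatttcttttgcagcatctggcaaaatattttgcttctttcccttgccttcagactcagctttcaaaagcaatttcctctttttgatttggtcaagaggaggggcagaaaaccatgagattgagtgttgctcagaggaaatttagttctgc

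RefSeq promoters of 300 bases (250 before and 50 after the start) were matched for 21 of the 37 genes. Of these, 14 had at least 15 CG pairs in their richest window, which is 66.7%. The share was 37.1% over 27025 genes with a window and 78.8% over 8219 such genes with at least 5 TPM in all 6 LL2 libraries. The richest windows were those of A730017L22Rik with 38, Unc5a with 37 and Acsl6 with 36 CG pairs, and the poorest those of Klra4 with 0, Trim12a with 1 and D030024E09Rik with 3.

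Among receptors, channels and transporters of the cell surface, levels lay mostly between 10 and 30 TPM. Gpr149, an orphan receptor, had 26.0, 22.9 and 30.7 TPM in LL2 OK432 and 24.4, 24.0 and 20.7 TPM in LL2 Ctrl, and was listed at 0 in 11 of the 12 others. Gpr135, another orphan receptor, had 16.2, 14.9 and 15.1 TPM in LL2 OK432 and 15.1, 14.4 and 14.9 TPM in LL2 Ctrl. Gpr135 kept within a narrower range across LL2 libraries than Gpr149, and the OK432 and Ctrl values of both overlapped.

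Agtr2, the type 2 receptor of angiotensin II, varied more. It had 17.7, 18.1 and 5.48 TPM in LL2 OK432, against 15.3, 16.4 and 16.5 TPM in LL2 Ctrl. A single OK432 library was low, and the other 2 were above every Ctrl library. The type 1 receptor Agtr1a was low in all tumours, at 0.407 to 0.713 TPM in LL2 and 0.350 to 1.68 TPM in the 12 others.

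Kcnq5, a voltage-gated potassium channel that carries the M current in neurons, had 16.8, 17.1 and 16.2 TPM in LL2 OK432 and 16.9, 17.4 and 18.2 TPM in LL2 Ctrl. Its highest value in the 12 others was 0.248 TPM, and the LL2 groups overlapped. Trpa1, a channel opened by irritants and known from sensory neurons, had 5.59, 6.58 and 5.50 TPM in LL2 OK432 and 5.97, 6.67 and 5.36 TPM in LL2 Ctrl. It was close to the lower limit of the choice.

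Slc6a15, a neutral amino acid transporter, had 17.4, 13.9 and 18.1 TPM in LL2 OK432 and 16.8, 13.8 and 13.7 TPM in LL2 Ctrl, and was listed at 0 in 11 of the 12 others. Slc9a2, a sodium-proton exchanger, had 15.1, 10.5 and 18.8 TPM in LL2 OK432, against 8.99, 9.82 and 9.58 TPM in LL2 Ctrl. Every OK432 library was above every Ctrl library for Slc9a2. The related exchanger Slc9a5 was present in all 18 libraries, at 36.2 to 39.6 TPM in LL2 and 18.3 to 35.5 TPM in the 12 others.

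Junction and scaffold genes included Pkp2, Ocln, Mpp7 and Shank2. Pkp2, a plakophilin of desmosomes, had 22.1, 21.1 and 23.5 TPM in LL2 OK432 and 22.3, 21.9 and 20.5 TPM in LL2 Ctrl. The desmosomal genes Dsp and Dsg2 did not accompany it, with at most 0.0566 TPM for Dsp and at most 0.0129 TPM for Dsg2 in LL2. Further desmosomal genes are not given here. Ocln, the tight junction protein occludin and the one gene of the set on the list of cadherin and adhesion genes, had 7.57, 7.04 and 8.22 TPM in LL2 OK432 and 7.65, 7.88 and 6.86 TPM in LL2 Ctrl. Its chromosomal neighbour and relative Marveld2 had 0.555 to 1.09 TPM in LL2 and at most 0.306 TPM in the 12 others, while the tight junction scaffold Tjp1 was present in all, at 85.5 to 96.8 TPM in LL2 and 52.4 to 96.8 TPM in the others. Krt8, a keratin of simple epithelia left out of the set by its name, had 146 to 261 TPM in LL2 and at most 0.199 TPM in the others.

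Mpp7, a scaffold of cell polarity, averaged 9.73 TPM over the 6 LL2 libraries. Shank2, a scaffold of excitatory synapses, had 13.1, 9.86 and 13.5 TPM in LL2 OK432 and 11.2, 10.4 and 9.26 TPM in LL2 Ctrl. Its relative Shank3 was also higher in LL2, at 25.9 to 40.8 TPM against 1.47 to 9.52 TPM in the 12 others, although it was not confined to LL2. Prph, an intermediate filament of peripheral neurons, averaged 8.12 TPM in LL2. The neurofilament genes Nefl and Nefm were present in LL2 and in CT26NYESO1 but near 0 in CT26. Nefl averaged 17.3 TPM in LL2, 11.1 TPM in CT26NYESO1 and 0.298 TPM in CT26. Both are on a list of 27 neural and neuroendocrine genes, which held 0 genes of the set. Of that list, 6 genes had at least 5 TPM in all LL2 libraries, 7 in all CT26NYESO1 libraries and 1 in all CT26 libraries.

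**Figure D2:**
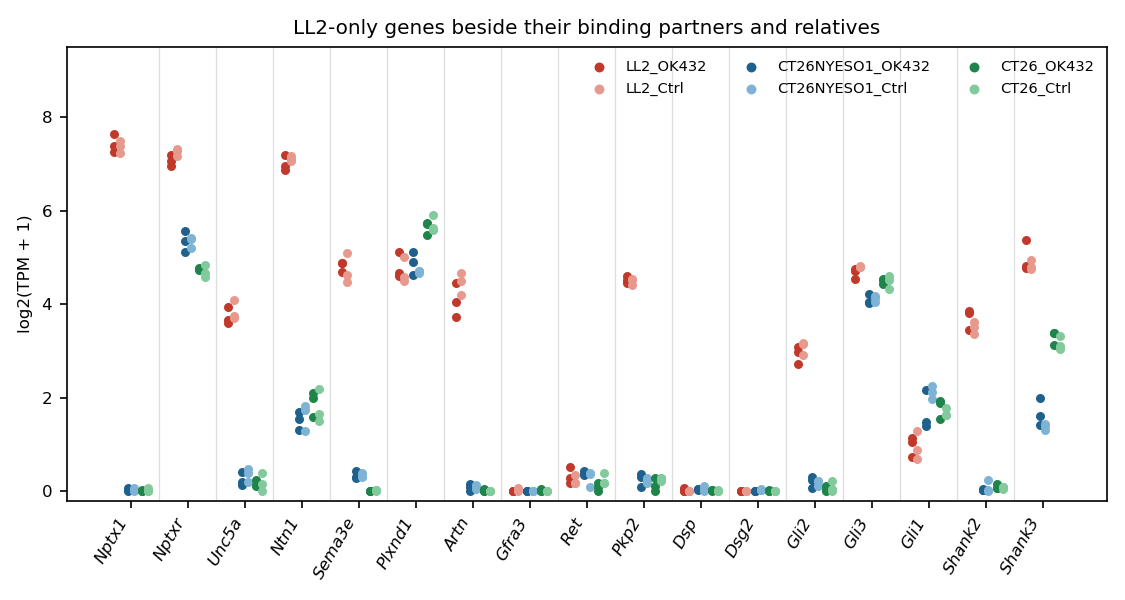
Points give log2(TPM + 1) in each library for 7 of the genes (Nptx1, Unc5a, Sema3e, Artn, Pkp2, Gli2 and Shank2) and for binding partners and relatives, with LL2 left of CT26NYESO1 and CT26, and OK432 left of Ctrl. Ntn1 and Shank3 are higher in LL2 than in the others, Plxnd1 and Gli3 are present in all, and Gfra3, Dsp and Dsg2 are near 0 in all.

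Among enzymes and intracellular signalling proteins, Acsl6 was the most abundant. Acsl6, which activates long-chain fatty acids, had 25.8, 23.8 and 25.9 TPM in LL2 OK432 and 24.6, 24.5 and 24.2 TPM in LL2 Ctrl. The other long-chain acyl-CoA synthetases were present in all tumours, Acsl5 for example at 73.4 to 83.6 TPM in LL2 and 97.4 to 186 TPM in the 12 others. Chst5, a sulfotransferase of carbohydrates, had 14.4, 14.6 and 13.4 TPM in LL2 OK432, against 15.9, 14.8 and 15.6 TPM in LL2 Ctrl, so that every OK432 library was below every Ctrl library.

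Pnck, a calmodulin-dependent kinase, had 14.2, 16.2 and 17.7 TPM in LL2 OK432 and 17.01, 12.1 and 13.2 TPM in LL2 Ctrl, and its 0.483 TPM in a CT26NYESO1 library was the value closest to the upper limit. Arhgdig, an inhibitor of small GTPases, averaged 13.5 TPM in LL2, where its relatives Arhgdia and Arhgdib averaged 784 and 174 TPM. Grb14, an adaptor that binds the insulin receptor, had 10.9, 8.02 and 16.3 TPM in LL2 OK432 and 9.51, 7.18 and 8.33 TPM in LL2 Ctrl. The ubiquitin-pathway genes Rnf207 and Usp43 averaged 12.7 and 11.2 TPM in LL2. Glt1d1, a predicted glycosyltransferase, had the lowest average of the set at 5.93 TPM.

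Transcription and chromatin genes were all under 10 TPM. Gli2, a transcription factor of the hedgehog pathway, had 6.87, 5.56 and 7.496 TPM in LL2 OK432 and 7.92, 6.57 and 8.06 TPM in LL2 Ctrl. Its relative Gli3 was present in all libraries, at 22.2 to 27.2 TPM in LL2 and 15.4 to 23.4 TPM in the 12 others. The pathway targets did not share a direction, since Hhip had 0.552 to 1.90 TPM in LL2 against at most 0.0555 TPM, while Gli1 had 0.627 to 1.47 TPM in LL2 against 1.63 to 3.76 TPM in the 12 others.

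Lhx9, a LIM-homeobox factor, had 8.18, 9.04 and 7.68 TPM in LL2 OK432 and 9.75, 8.05 and 8.36 TPM in LL2 Ctrl. It was the one gene of the set on a list of 111 developmental transcription factors, of which 26 had at least 5 TPM in all 6 LL2 libraries. Foxf2, a forkhead factor of mesenchyme, averaged 8.04 TPM in LL2, whereas its relative Foxf1 was lower in LL2 than elsewhere, at 6.96 to 8.41 TPM against 21.03 to 54.1 TPM in the 12 others. Dppa4, a chromatin-associated gene of pluripotent cells, had 7.04, 8.40 and 7.05 TPM in LL2 OK432 and 7.18, 6.38 and 6.49 TPM in LL2 Ctrl. Its partner Dppa2 was not confined to LL2, averaging 1.92 TPM in LL2, 0.259 TPM in CT26NYESO1 and 1.56 TPM in CT26. Of 52 listed cancer-germline genes, Dppa4 was the one in the set.

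A pair of genes in the set lie in clusters of recently duplicated immune genes. Klra4 encodes Ly49D, an activating receptor of natural killer cells, in a cluster on chromosome 6 whose gene content is known to differ between inbred strains, the BALB/c set being smaller than that of C57BL/6. Trim12a belongs to the Trim5, Trim12, Trim30 and Trim34 cluster on chromosome 7, relatives of the antiviral factor TRIM5 that expanded in rodents. The mm10 build was used for all 18 libraries. Whether BALB/c reads from these clusters align to it as well as C57BL/6 reads was not tested, and this limits the values below.

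Klra4 had 10.7, 8.91 and 11.97 TPM in LL2 OK432 and 11.99, 9.77 and 9.13 TPM in LL2 Ctrl, and was listed at 0 in all 12 others. Nearby genes went the same way at much lower levels. Klra6 had 0.248 to 0.524 TPM in LL2 and at most 0.00492 TPM in the others, Klra8 had 0.370 to 1.09 TPM in LL2 and at most 0.0728 TPM, and Klra14-ps had 0.115 to 0.461 TPM in LL2 and was listed at 0 in the others. Other genes of the cluster went the opposite way, with Klra3 at 0.0650 to 0.486 TPM in LL2 against 2.52 to 6.60 TPM, Klra5 listed at 0 in LL2 against 0.0552 to 0.855 TPM, and Klra2 at 8.49 to 21.2 TPM in LL2 against 25.9 to 67.1 TPM.

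Natural killer genes outside the cluster did not follow Klra4. Ncr1, a receptor that defines natural killer cells, had 0.440 to 1.499 TPM in LL2 against 6.56 to 11.9 TPM in the 12 others, and the perforin gene Prf1 had 0.333 to 1.35 TPM against 8.76 to 28.0 TPM. Klra4 was therefore several-fold above Ncr1 in every LL2 library. Of its 1196 stretches of 50 bases, 4.68% occurred in other annotated transcripts, mostly in Klra1, which had at most 0.278 TPM in LL2.

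Trim12a had 6.93, 11.4 and 7.36 TPM in LL2 OK432 and 7.54, 14.9 and 11.5 TPM in LL2 Ctrl, against at most 0.372 TPM in the 12 others. On one side its neighbour Trim5 was higher in LL2, at 0.667 to 1.63 TPM against at most 0.177 TPM. On the other side Trim34b had 0.0498 to 0.456 TPM in LL2 against 8.01 to 16.1 TPM, and the near copy Trim12c had 4.23 to 9.31 TPM in LL2 against 17.9 to 47.9 TPM. Neighbours in this cluster thus differed in opposite directions. Of the 50-base stretches of Trim12a, 10.4% occurred in other transcripts and 5.04% in Trim5, so part of these values could be split between copies.

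**Figure D3:**
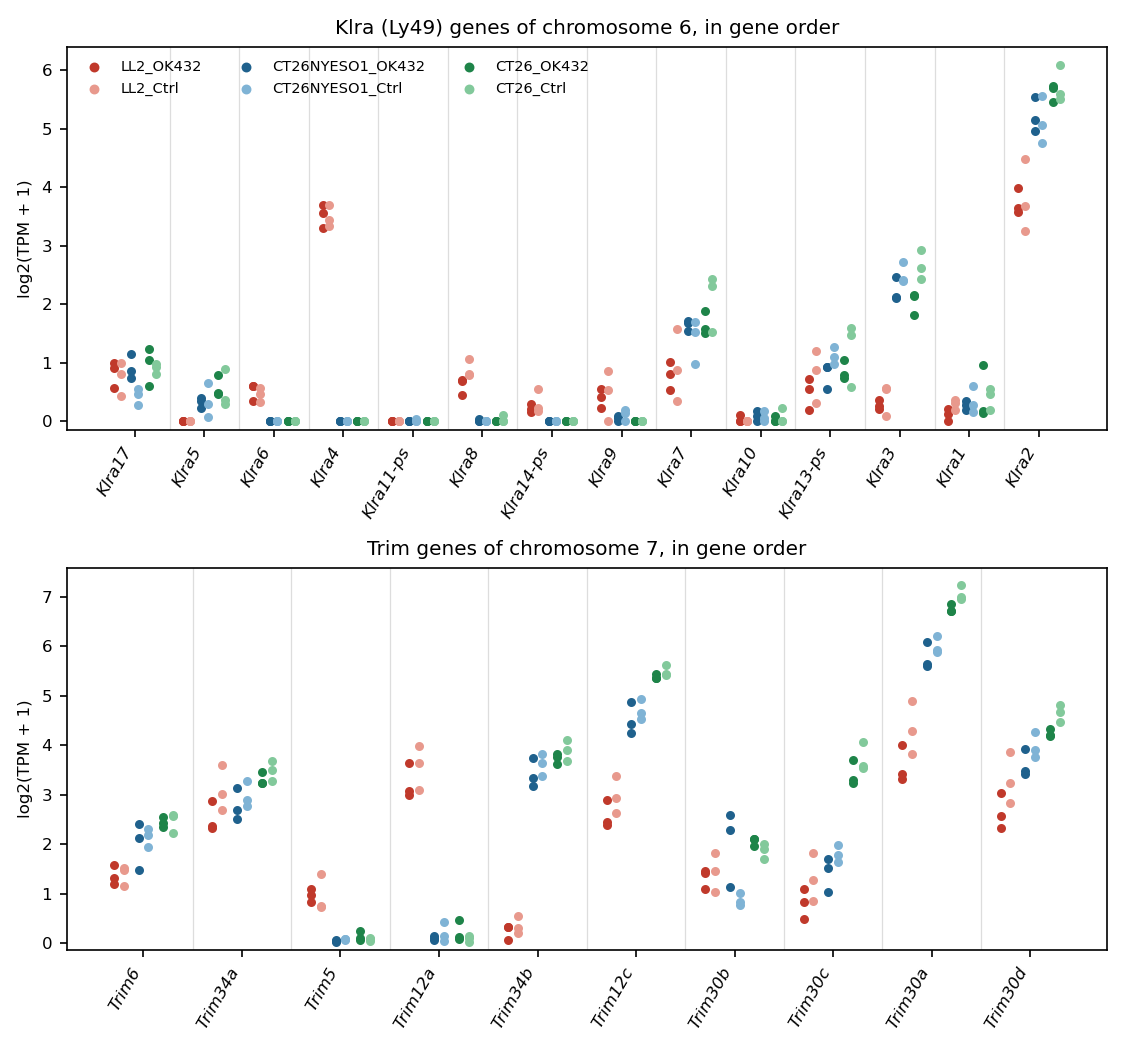
Points give log2(TPM + 1) in each library for the Klra genes of chromosome 6 and the Trim genes of chromosome 7, ordered along the chromosome, with LL2 left of CT26NYESO1 and CT26, and OK432 left of Ctrl. Klra4 has 8.91 to 11.99 TPM in LL2 and is listed at 0 in the others, and Trim12a and Trim34b, which are next to each other, are high in opposite tumours.

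Trim12a and interferon-stimulated genes were high in the same LL2 libraries. The mean log2(TPM + 1) over 24 listed interferon-stimulated genes was 3.71, 4.61 and 3.46 in LL2 OK432 and 4.17, 5.63 and 5.17 in LL2 Ctrl. The 3 libraries highest on this score were also the 3 highest for Trim12a, and these span both treatments, while the 2 lowest, OK432 replicates 1 and 3, were in the opposite order. The CT26NYESO1 and CT26 libraries, in which Trim12a was near 0, had scores of 5.62 to 7.21.

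The start of Trim12a is shown with the matching stretch of Trim12c because it holds a sequence like the interferon-stimulated response element. The motif searched was GAAA, any 2 bases and GAAA again, on either strand without overlap, and it is in capitals. Both stretches are from RefSeq (GRCm38.p6), 5′ to 3′ on the minus strand, Trim12a at chr7:104315466-104315495 and Trim12c at chr7:104353359-104353388. The 2 stretches share 28 of 30 bases. Its place relative to the start depends on the annotation. By the RefSeq starts the motif begins at base 11 of the Trim12a transcript and 29 bases before Trim12c, whereas by the GENCODE M21 starts it begins 19 bases before Trim12a and 16 bases before Trim12c.
Trim12a: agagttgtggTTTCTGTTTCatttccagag
Trim12c: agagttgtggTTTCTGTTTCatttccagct

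Trim12a was the 1 gene of the 21 with a window that held the motif. It was found in 3.44% of all 32851 windows and in 61.1% of the 18 windows of listed interferon-stimulated genes. A match describes these letters and does not show that a factor binds there.

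**Figure D4:**
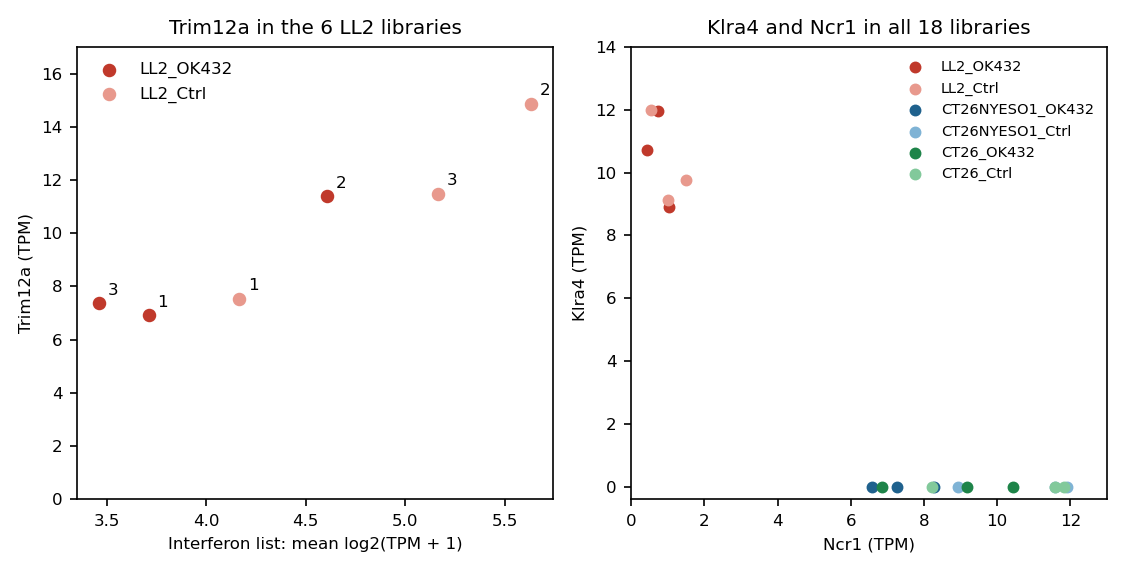
The left panel sets Trim12a (TPM) against the mean log2(TPM + 1) of 24 interferon-stimulated genes in the 6 LL2 libraries, numbered by replicate, where the 3 libraries above 4.5 on the score have at least 11.4 TPM. The right panel sets Klra4 against Ncr1 (both TPM) in all 18 libraries, where LL2 libraries have the higher Klra4 and the lower Ncr1.

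The 6 remaining genes were non-coding or had no established role. The non-coding 5430421F17Rik had the smallest spread of the set, with 9.20, 9.61 and 9.01 TPM in LL2 OK432 and 9.70, 9.58 and 9.28 TPM in LL2 Ctrl. D030024E09Rik, a long non-coding RNA on chromosome 15, averaged 9.13 TPM in LL2 and has Myc as its nearest protein-coding gene on one side. Myc had 321 to 483 TPM in LL2 against 102 to 148 TPM in the 12 others, and the nearby non-coding Pvt1 had 295 to 337 TPM against 23.0 to 41.8 TPM. Of the 50-base stretches of D030024E09Rik, 53.2% also belong to Gm49498, which was listed at 0 in all 18 libraries.

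Fam228b averaged 9.06 TPM in LL2, and its neighbours Fam228a and Pfn4 were also near 0 outside LL2. Pfn4 overlaps it on the other strand and had 0.841 to 2.18 TPM in LL2 against at most 0.0192 TPM. The non-coding A730017L22Rik had 6.82, 6.85 and 7.09 TPM in LL2 OK432, below every value of LL2 Ctrl, which had 7.40, 7.23 and 8.09 TPM. It overlaps 4930402H24Rik on the same strand, which had 30.2 to 34.2 TPM in LL2 and 18.2 to 37.4 TPM in the others. Gm266 averaged 8.31 TPM and 4930481A15Rik 6.28 TPM in LL2.

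Protein-coding neighbours of the genes were often active in CT26NYESO1 and CT26 tumours. Their 74 nearest protein-coding neighbours included 0 genes of the set, and 39 had at least 1 TPM in all 12 CT26NYESO1 and CT26 libraries. Such a neighbour stood on at least 1 side of 27 of the 37 genes and on both sides of 12. The share of all genes at that level was not counted. Of 43 neighbours tested, 12 had every LL2 library above every other library, which is 27.9%, against 17.1% of all genes tested. An example is L3hypdh beside Gpr135, with 29.8 TPM or more in LL2 and at most 0.754 TPM in the 12 others.

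Genes on the other strand overlapped 17 of the 37, and in 6 cases the overlapping gene averaged at least 1 TPM in LL2. These 6 were Arhgdig, Unc5a, Rnf207, Fam228b, 4930481A15Rik and Glt1d1. The sources used here do not give the strand setting of the authors' quantification, so reads of these pairs may not be separable. For 31 of the 37 genes, under 1% of 50-base stretches occurred in another gene, and Dppa4, with 31.3%, mostly in the pseudogene Gm14058, was 1 of 3 genes over 10%.

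The set held 0 genes from the marker lists of leukocytes, endothelium, fibroblasts, skeletal muscle, skin and fat, and 0 from the lists of lung and colon epithelium. It also held 0 from the lists of squamous and basal genes and of neural and neuroendocrine genes. The upper limit of the choice barred most leukocyte, endothelial and fibroblast markers in advance. In CT26NYESO1, 17 of 18, 6 of 8 and 8 of 8 of these had at least 1 TPM in all libraries. The counts in CT26 were 16, 7 and 8. Keratins were also left out by name. The counts of 0 were not compared with a number expected for 37 genes, so no conclusion about host cells is drawn from them. The summed level of the 18 leukocyte markers was 1953 to 2067 TPM in LL2 OK432, 1672 to 2098 TPM in LL2 Ctrl and 2377 to 3212 TPM in the 12 others. Of 18 markers, 14 had at least 1 TPM in all 6 LL2 libraries, and Cd79a, Cd8a and Ncr1 were among the low ones. The part of host cells in the levels of the 37 genes was not tested.

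Spread over the 6 LL2 libraries was wider in the set than over all genes with at least 5 TPM in every LL2 library. These were not matched to the set by level. The SD of log2(TPM + 1) had a median of 0.163 and a range of 0.0381 to 0.599 in the set, and it was under 0.25 for 32 of 37 genes (86.5%). The share under 0.25 was 94.8% and the median was 0.0925 over all 10669 genes with at least 5 TPM in every LL2 library, 0.184 over 13 such leukocyte genes and 0.869 over 17 such interferon-stimulated genes. The largest values belonged to Agtr2 with 0.599, Trim12a with 0.409, Slc9a2 with 0.399, Grb14 with 0.388 and Artn with 0.343.

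The libraries did not contribute evenly to this spread. Replicate 1 of LL2 Ctrl was the highest of the 6 for 10 genes, and replicate 3 of LL2 Ctrl was the lowest for 11. Replicate 3 of LL2 OK432 was the highest of the 6 for 11 genes and the lowest for 9. It had the highest Slc9a2, Grb14 and Nptx1 and the lowest Agtr2, Artn and Edil3. The same library had the highest summed level of 10 skeletal muscle markers, 426 TPM, against a lowest of 29.4 TPM in the LL2 OK432 group and 90.1 to 184 TPM in LL2 Ctrl. The part of muscle in these values was not tested.

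OK-432 left no gene of the set changed past the threshold in LL2 tumours. Values were compared as log2(TPM + 1) with limma across all 16816 genes with at least 1 TPM in at least 3 of the 18 libraries, and the threshold for a call was an adjusted p (Benjamini-Hochberg) under 0.05. All 37 genes entered the test, and 0 were called higher and 0 lower. Over all genes tested, 2 were called higher (0.0119%) and 1 lower (0.00595%), so few calls were made anywhere. The median change of the 37 genes was 0.03, against -0.01 over all genes tested, with 20 above 0 and 17 below, and a range of -0.37 to 0.56.

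Slc9a2 had the largest change of the set. It averaged 14.8 ± 4.18 TPM in LL2 OK432 and 9.46 ± 0.429 TPM in LL2 Ctrl (SD, n = 3 each). The log2 change was 0.56 with a standard error of 0.14, an unadjusted p of 0.00123 and an adjusted p of 0.518 in limma. It was higher in 3 of 3 OK432 libraries, but its change did not pass the correction. It passed, at 0.77 and an adjusted limma p of 0.0420, when LL2 OK432 replicate 2 was left out, and under none of the other alternatives run. The change was 0.38 without OK432 replicate 3.

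At an unadjusted limma p under 0.05 over all 18 libraries, 2 genes of the set were higher, Slc9a2 and Grb14, and 1 was lower, Artn. The shares over all genes tested were 2.31% and 2.95%. Grb14 averaged 11.7 ± 4.19 TPM in LL2 OK432 and 8.34 ± 1.16 TPM in LL2 Ctrl (SD, n = 3 each), a log2 change of 0.40 that was 0.16 without OK432 replicate 3. Artn averaged 16.3 ± 4.46 TPM in LL2 OK432 and 21.1 ± 3.48 TPM in LL2 Ctrl (SD, n = 3 each), a log2 change of -0.37 that was -0.19 without the same replicate. The groups overlapped for both genes, and neither passed the correction, with adjusted limma p of 0.896 and 0.888.

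Groups that did not overlap were found for 1 gene higher in OK432, Slc9a2, and 2 genes lower, Chst5 and A730017L22Rik. Over all genes tested 4.7% were higher and 5.17% lower in this sense, and the counts of the set lay near these shares. Chst5 averaged 14.1 ± 0.637 TPM in LL2 OK432 and 15.4 ± 0.573 TPM in LL2 Ctrl (SD, n = 3 each), a log2 change of -0.12. Agtr2 had a log2 change of -0.37 with a standard error of 0.27, which was 0.15 without OK432 replicate 3, the library at 5.48 TPM.

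The fit over 18 libraries shares the spread of all groups, and these genes are near 0 in 12 libraries. By the median, it understates their spread in LL2. The median residual SD of the 37 genes was 0.107 in that fit and 0.160 in a fit of the 6 LL2 libraries alone. Some genes went the other way, such as Gpr135 with 0.0963 over 18 libraries and 0.0482 in LL2 alone. The LL2 fit also called 0 of the 37, against 0.0416% of all genes tested called higher and 0.0119% called lower. With an unadjusted limma p under 0.05, it had 1 gene of the set higher, Slc9a2, and 0 lower. The shares over all genes tested were 2.68% and 2.48%. The unadjusted limma p of Slc9a2 was 0.0162 in the LL2 fit, against 0.00123 over 18 libraries. Those of Grb14 and Artn were 0.110 and 0.0952 in the LL2 fit. The lowest adjusted limma p of the set was 0.915 in that fit, and its 95% interval for Slc9a2 was 0.14 to 0.98. For Nptx1 the interval was -0.19 to 0.31 around a change of 0.06, and for Klra4 it was -0.28 to 0.34 around 0.03.

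**Figure D5:**
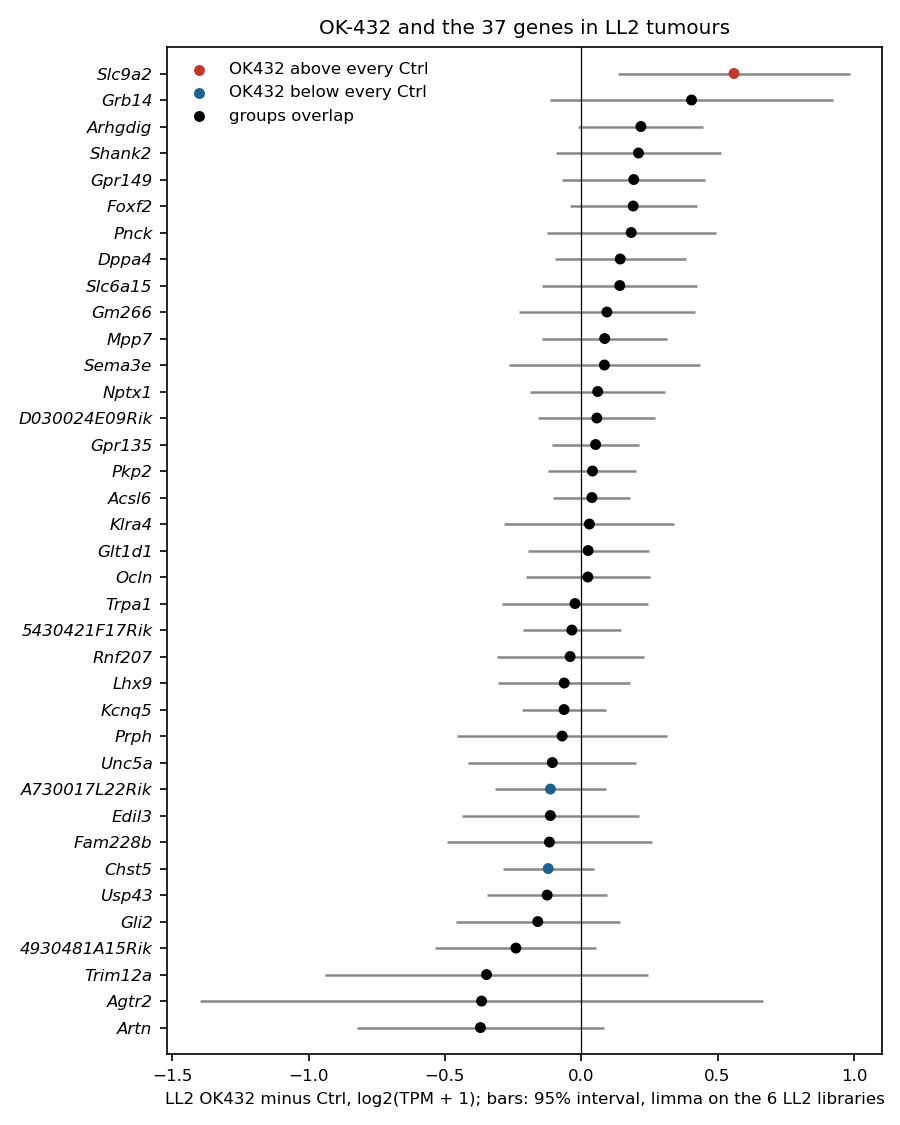
Points give the change of each of the 37 genes in LL2 tumours, OK432 minus Ctrl, in log2(TPM + 1), and bars give the 95% interval of the limma fit to the 6 LL2 libraries. Slc9a2 is at the top at 0.56 with separate groups, Artn at the bottom at -0.37 with overlapping groups, and 0 genes passed the correction.

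Genes near the limits of the choice were as follows. The lowest LL2 library decided 4930481A15Rik at 5.03, Trpa1 at 5.36, Glt1d1 at 5.39, Agtr2 at 5.48 and Gli2 at 5.56 TPM on the inside. Just outside were Nkx2-2 at 4.87, Foxa2 at 4.76, Syt14 at 4.72, 1700120G11Rik at 4.70 and B4galnt4 at 4.65 TPM. The highest of the 12 other libraries put Pnck at 0.483, Edil3 at 0.438, Fam228b at 0.428, Unc5a at 0.386 and Trim12a at 0.372 TPM inside. Outside were Ptn at 0.526, Pcolce2 at 0.533, Ank3 at 0.536, Zfp647 at 0.570 and Stxbp6 at 0.578 TPM.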

How the data were processed

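The authors deposited 1 table of TPM values for 55291 genes and 18 libraries. Per the submitters' processing notes, Trim Galore 0.6.5, STAR 2.7.3a, StringTie 2.1.2 and the mm10 build were used, and the labels' protocols name a stranded mRNA kit. The sources used here do not give the annotation, the strand setting or any filter. Depth cannot be read from TPM, no counting intervals are given, and an exact 0 can be a failed estimate.

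The rule was applied to the TPM values with Python 3.11.15 and pandas 2.3.3. Values were then taken as log2(TPM + 1), a scale that understates changes of low genes, and fitted with limma 3.58.1 in R 4.3.3 (6 group means, no covariate, trended and robust shrinkage, Benjamini-Hochberg over all genes tested). The procedure was tested on simulated data. Positions are from GENCODE M21 on mm10, which held 53292 of the symbols. Shared sequence was counted over 50-base stretches of annotated transcripts. RefSeq promoters (GRCm38.p6) were used for 21 genes, and the other genes had no matched window.

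Genes given in most detail were the 12 with the highest mean in LL2, those on a gene list, the 5 with the largest spread in LL2, those with an unadjusted p under 0.05 and separate groups, and the 5 nearest each limit on either side. Klra4 and the other genes of the set, their relatives and partners, and L3hypdh were named after their values were seen. The genes and lists were chosen with earlier results of these data known. Alternatives were other limits, pseudocounts, filters and scalings, a fit of LL2 alone, a replicate block, and leaving out each LL2 library.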

Additional observations from a re-analysis of the deposited data

How the results depend on the processing

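The set held 37 genes under the limits used. It held 80 with at least 2 TPM in every LL2 library, 16 with at least 10 TPM, 7 with under 0.1 TPM in every CT26NYESO1 and CT26 library and 66 with under 1 TPM, and 37 to 38 when each LL2 library was left out in turn. Rescaling by the median of ratios removed Pnck and 4930481A15Rik. For OK-432 in LL2, 2 genes of all tested were higher and 1 lower. The count of higher genes was 0 with a pseudocount of 0.1, 0 with 0.5, 10 with no filter, 7 in the fit of LL2 alone, and 0 to 4 with 1 LL2 library left out. The count of lower genes was 8 with no filter, 2 in the fit of LL2 alone, and 1 to 11 with 1 LL2 library left out. Genes of the set called higher numbered 0 to 1 with 1 library left out, the 1 being Slc9a2 without OK432 replicate 2, and 0 under every other alternative. The cause of these shifts was not tested. With the replicate number as a block, 0 genes were higher and 1 lower over all genes, and 0 of the set were called. Deviations of same-numbered LL2 libraries correlated at 0.0431, 0.219 and -0.0150, and 2 of 3 numbers matched best with their own, so the numbers do not establish a pairing. Counting depth is unknown, and 3 libraries a group limit the precision.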
